A study of Mus musculus with 10 samples.

Results

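The endothelium-like cells of embryoid bodies (EB) at day 4 (d4) were a rare class, with 51 of 3483 d4 EB cells and of 5897 cells in the whole series. They were chosen by their counts: a cell was taken when at least 3 of the 6 genes *Cdh5*, *Emcn*, *Cldn5*, *Sox18*, *Icam2* and *Ctla2a* had at least 1 unique molecular identifier (UMI, a tag that marks 1 captured RNA molecule). By this rule the E14Tg2a library held 26 of 368 cells, the R1 WT library 16 of 1416 and the R1 dCD library 9 of 1699. The study asked whether the enhancer mark H3K4me1 is needed for the competence of pluripotent cells to form primordial germ cell-like cells (PGCLC), and single cells were profiled by droplet 3′ RNA sequencing along that differentiation. The endothelium-like cells were dissociated from the same EB as the germ cell-like cells.

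All 3 libraries came from male mouse embryonic stem cells (ESC) that were brought into 2i+LIF medium, turned into epiblast-like cells (EpiLC) with Activin A, bFGF and KSR, and then cultured for 4 days as floating EB in GK15 medium with BMP4, SCF, LIF and EGF. E14Tg2a and R1 WT are separate wild-type lines. R1 dCD (genotype *Mll3/4* dCD) is a line derived from R1 WT in which MLL3 and MLL4, the methyltransferases that place H3K4me1 at enhancers, lack catalytic activity. The mutations change single positions of the proteins, so the counts of both genes are no check of the label. Each group was 1 library of 1 line. No test between groups was therefore possible, no p-value is given, and line, kit and library cannot be told apart: E14Tg2a was prepared with the v2 and both R1 libraries with the v3 chemistry. Intervals cover counting error alone, not the spread between cells or cultures.

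Endothelial cells line blood vessels and are among the first mesodermal derivatives to form in the yolk sac and embryo. BMP4 induces their mesodermal precursors, the ETS factor ETV2 opens the program together with TAL1 and FLI1, and signalling by VEGF through its receptor KDR (VEGFR2) and by angiopoietins through the TIE receptors then carries it on. Of the 6 genes of the rule, *Cdh5* encodes VE-cadherin of endothelial adherens junctions, *Cldn5* the tight junction protein claudin-5, *Emcn* the sialomucin endomucin, *Icam2* an adhesion molecule, *Sox18* a SOX factor of vascular and lymphatic development, and *Ctla2a* an inhibitor of cathepsin-type proteases.

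On the mouse build GRCm38 the genes of the rule lay on 6 chromosomes, so that no pair of them could share reads by overlap. *Cdh5* spans chr8:104101625-104144511, *Emcn* chr3:137341067-137432185 and *Cldn5* chr16:18776847-18778262 on the forward strand. *Sox18* spans chr2:181669836-181671640, *Icam2* chr11:106377656-106388075 and *Ctla2a* chr13:60934155-60936625 on the reverse strand. *Ctla2a* has the close paralogue *Ctla2b*, and reads of 1 may be counted for the other, so the levels of both are uncertain.

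The 250 bases before the start of 5 genes are shown because ETS factors, which these cells held, bind a GGAA core. They are given 5′ to 3′ on the gene's strand, from RefSeq on GRCm38.p6, with GGAA or TTCC (the same letters read from the opposite strand) in capitals. The table held 3 of the 6 genes of the rule, *Emcn* (chr3:137340828-137341077), *Cldn5* (chr16:18776597-18776846) and *Ctla2a* (chr13:60936626-60936875), and 2 receptor genes described further on were added, *Kdr* (chr5:75978456-75978705) and *Tie1* (chr4:118489850-118490099). *Tie1* held 7 copies, a number reached by 3.82% of the 32851 promoters searched, while *Emcn* and *Kdr* each held 4 (reached by 33.4%), *Ctla2a* 3 (reached by 54.7%) and *Cldn5* 0 (as did 6.55% of promoters). The median promoter held 3. A match describes the letters and is no evidence of binding.
Emcn: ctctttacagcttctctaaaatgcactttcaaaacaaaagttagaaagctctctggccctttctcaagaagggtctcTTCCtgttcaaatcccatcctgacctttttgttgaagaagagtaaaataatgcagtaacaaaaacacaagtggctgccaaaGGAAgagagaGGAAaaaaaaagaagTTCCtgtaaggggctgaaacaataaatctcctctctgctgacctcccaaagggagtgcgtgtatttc
Cldn5: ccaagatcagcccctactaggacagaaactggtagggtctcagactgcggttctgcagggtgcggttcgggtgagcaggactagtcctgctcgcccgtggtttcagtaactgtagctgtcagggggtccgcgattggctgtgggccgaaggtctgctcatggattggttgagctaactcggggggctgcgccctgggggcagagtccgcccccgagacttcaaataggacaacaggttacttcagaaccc
Ctla2a: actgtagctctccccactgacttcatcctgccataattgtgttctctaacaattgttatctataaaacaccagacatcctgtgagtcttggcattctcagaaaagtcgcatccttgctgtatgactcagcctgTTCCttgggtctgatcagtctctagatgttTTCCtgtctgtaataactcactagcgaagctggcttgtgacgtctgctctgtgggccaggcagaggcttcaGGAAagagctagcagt
Kdr: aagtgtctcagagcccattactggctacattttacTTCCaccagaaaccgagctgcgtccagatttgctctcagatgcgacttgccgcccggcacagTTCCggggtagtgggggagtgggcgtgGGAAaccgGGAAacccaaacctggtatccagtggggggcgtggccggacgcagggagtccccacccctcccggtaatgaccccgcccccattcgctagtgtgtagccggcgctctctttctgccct
Tie1: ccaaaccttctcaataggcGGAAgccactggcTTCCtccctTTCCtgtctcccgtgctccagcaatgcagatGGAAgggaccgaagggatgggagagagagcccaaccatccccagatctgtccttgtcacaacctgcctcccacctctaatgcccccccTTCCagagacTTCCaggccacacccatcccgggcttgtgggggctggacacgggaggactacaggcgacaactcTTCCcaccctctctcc

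The cells fell into a large group with few genes of the rule and a small one with many. In E14Tg2a, 280, 53 and 9 cells held 0, 1 and 2 of the 6 genes, none held 3, and 1, 5 and 20 cells held 4, 5 and 6. In R1 WT the numbers for 0 to 6 genes were 1188, 206, 6, 2, 2, 7 and 5 cells, and in R1 dCD 1556, 131, 3, 1, 3, 2 and 3. The share of endothelium-like cells was 7.07% in E14Tg2a (exact Clopper-Pearson 95% CI 4.67 to 10.2), 1.13% in R1 WT (0.647 to 1.83) and 0.530% in R1 dCD (0.243 to 1.003). The intervals of the R1 libraries overlapped. With every cell thinned to 15374 UMIs in E14Tg2a and 6831 in R1, 24 of 331, 15 of 1366 and 8 of 1529 cells met the rule. None of 2414 cells from the other 7 E14Tg2a libraries (ESC, EpiLC, EpiSC and d2 EB) met it, a count of 0 that allows at most 0.124%. Of these, 7 cells held 2 of the genes and 195 held 1. The cells just outside the rule, with 2 genes, had a median of 555, 1354 and 1284 counts per 1000000 UMIs (CPM) summed over 42 other endothelial genes in E14Tg2a, R1 WT and R1 dCD. Just inside it, the 2 R1 WT cells and the 1 R1 dCD cell with 3 genes had 2934 and 5441 CPM (the former a median). The border was not clean by this sum. The highest R1 WT cell with 2 genes was at 4661 CPM, above the higher of the 2 with 3 genes, at 2962. In R1 dCD a cell with 0 genes of the rule reached 4336 CPM, while the lowest endothelium-like cell was at 3954.

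**Figure D1:**
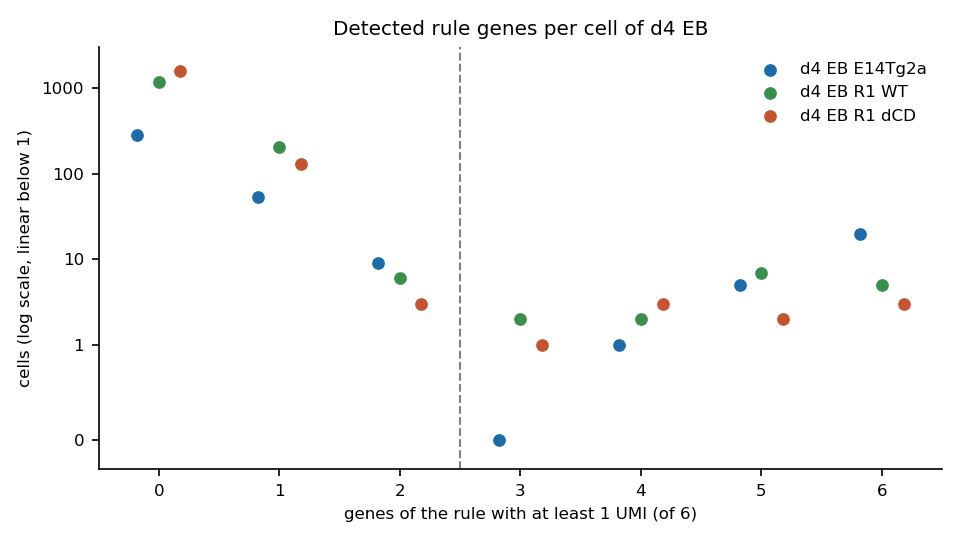
Number of d4 EB cells (vertical axis, log scale, linear below 1) by how many of the 6 genes of the rule had at least 1 UMI (horizontal axis), with 1 colour per library. Most cells held 0 or 1 gene. The fewest cells were at 3 genes in E14Tg2a (0 cells) and R1 dCD (1 cell), and at 3 and 4 genes in R1 WT (2 cells each). In R1 dCD the counts at 2 to 6 genes differed little, with 3, 1, 3, 2 and 3 cells.

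The endothelium-like cells had close to the depth of their neighbours in R1 and more in E14Tg2a. The median was 34871.5 UMIs per endothelium-like cell against 21186.5 per remaining cell in E14Tg2a, 11622 against 13191 in R1 WT and 11259 against 11765.5 in R1 dCD. Median mitochondrial shares were 3.52% against 3.68%, 5.36% against 5.30% and 4.81% against 6.75%. A doublet caller marked 0 of the 51 cells, and 4, 9 and 10 of the remaining cells. No barcode was shared between the 3 libraries, and 0 of the 26 E14Tg2a cells were among the listed PGCLC. In sum the cells held 1170826, 207980 and 102396 UMIs, so that 3 UMIs, the limit that a count of 0 allows, came to 2.56, 14.4 and 29.3 CPM.

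The genes of the rule were high in these cells and near 0 in the rest, as the rule requires, and their values are given as a description. Levels are given from here on in the order E14Tg2a, R1 WT and R1 dCD, in the endothelium-like cells against the remaining cells of the same library. *Cdh5* had at least 1 UMI in 25 of 26, 15 of 16 and 7 of 9 cells of E14Tg2a, R1 WT and R1 dCD, with 0, 8.5 and 55 UMIs in the lowest, median and highest cell of E14Tg2a, 0, 6 and 14 in R1 WT and 0, 1 and 7 in R1 dCD. Summed over cells it reached 264 CPM (95% CI 235 to 295), 428 CPM (95% CI 344 to 527) and 186 CPM (95% CI 112 to 289.8), and the remaining cells 8.18, 0.196 and 0 CPM. The lowest and the highest cell thus differed widely within each library, and 4.09% of the remaining E14Tg2a cells but 0 of 1690 in R1 dCD held a *Cdh5* UMI. *Emcn* was found in 24 of 26, 11 of 16 and 5 of 9 cells, at 202, 183 and 137 CPM against 0.83, 0 and 0.0878. *Sox18* was found in 24 of 26, 13 of 16 and 8 of 9, at 107, 284 and 244 CPM against 0.237, 0.294 and 0.395. *Icam2* was found in 25 of 26, 13 of 16 and 5 of 9, at 141, 183 and 225 CPM against 2.02, 0.196 and 0.571. These 3 genes were each at most 2.02 CPM outside the endothelium-like cells.

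*Cldn5* and *Ctla2a* were the genes of the rule whose level differed most between the libraries. *Cldn5* had 1, 23.5 and 78 UMIs in the lowest, median and highest E14Tg2a cell, 0, 1 and 7 in R1 WT and 1, 8 and 13 in R1 dCD, and every cell of E14Tg2a and R1 dCD but 12 of 16 of R1 WT held it. Its level was 609.8 CPM (95% CI 566 to 656), 125 CPM (95% CI 81.7 to 183) and 645 CPM (95% CI 498 to 820.0). *Ctla2a* had 0, 9 and 46 UMIs in the lowest, median and highest cell of E14Tg2a, 0, 34.5 and 149 in R1 WT and 2, 41 and 191 in R1 dCD, and reached 297 CPM (95% CI 267 to 330.2), 3015 CPM (95% CI 2783 to 3260.2) and 5176 CPM (95% CI 4745 to 5636). The R1 cells thus held more *Ctla2a* than those of E14Tg2a, a difference between lines that were prepared with different kits. In R1 *Ctla2a* was also the gene of the rule with the most signal outside the class, and over the 3 libraries it was found in 4.09%, 12.1% and 5.27% of the remaining cells at 3.56, 20.4 and 12.9 CPM. Its paralogue *Ctla2b* was at 60.6, 370.2 and 518 CPM against 1.54, 6.33 and 2.19. All 6 genes were found together in 20 of 26 E14Tg2a, 5 of 16 R1 WT and 3 of 9 R1 dCD cells. The gene most often missing was *Sox18* in E14Tg2a (2 of 26 cells) together with *Emcn* (2 of 26), and *Emcn* in R1 WT (5 of 16) and, with *Icam2*, in R1 dCD (4 of 9 cells each).

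**Figure D2:**
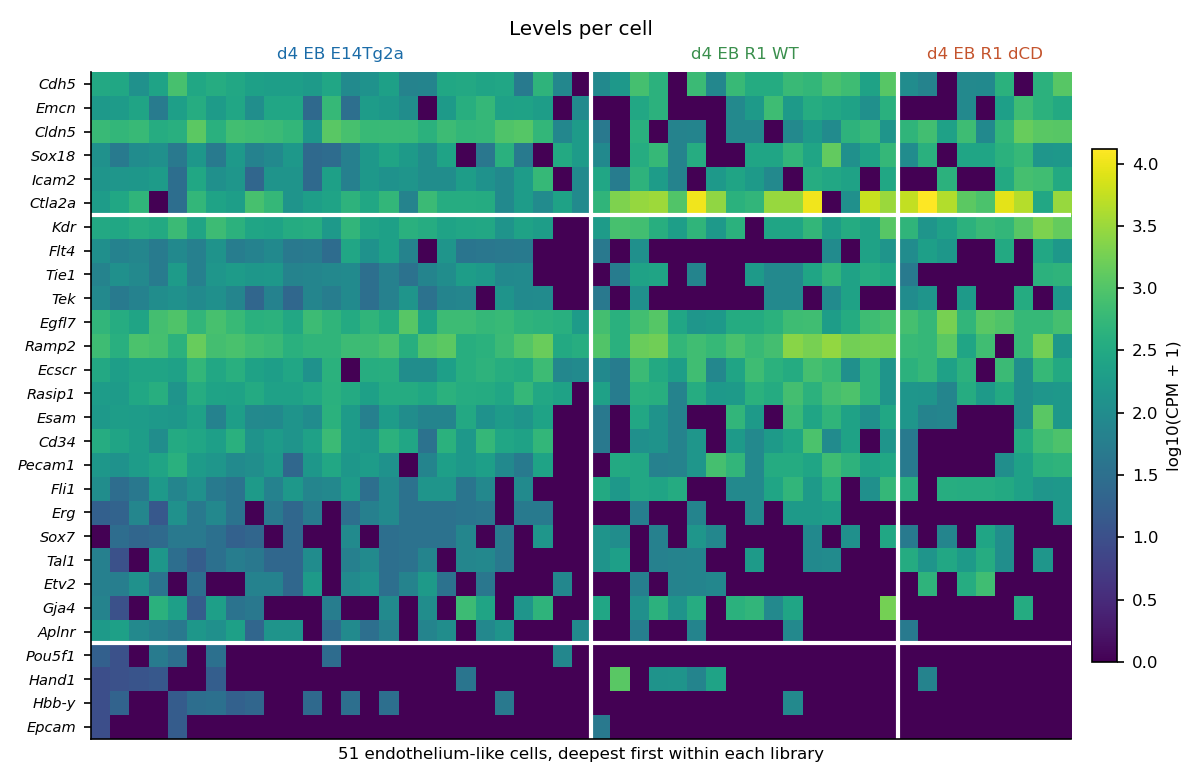
Level of the genes of the rule (upper rows), of other endothelial genes and of 4 markers of other classes (lowest rows) in each of the 51 endothelium-like cells (columns, deepest first within each library), coloured by log10(CPM + 1). Most endothelial genes are present across the 26 E14Tg2a cells apart from the last 2 columns, while the shallower R1 cells show more gaps.

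Endothelial genes that the rule did not use were high in the same cells, and the name was kept. Of 42 such genes (transcription factors and surface or junction genes), 36, 37 and 36 had at least 10 UMIs in E14Tg2a, R1 WT and R1 dCD, and 31, 33 and 31 of these were at least 2-fold higher in the endothelium-like cells than in the rest. Over all genes, 977 of 12378 (7.89%) were at least 2-fold higher in E14Tg2a, 1423 of 14297 (9.95%) in R1 WT and 1753 of 15179 (11.5%) in R1 dCD, and 25.1%, 38.2% and 47.6% at least 2-fold lower. In so few cells a gene at 0 UMIs counts as lower even where the limit of 3 UMIs lies above its level in the rest. The median log2 ratio of the endothelial genes, with 1 CPM added, was 4.03, 4.16 and 3.94, against -0.23, -0.37 and -0.61 for all genes. Because the cells were chosen on this same contrast, these counts describe them and are not a test. A median of 29, 20 and 18 of the 42 genes was found per endothelium-like cell, against 5, 4 and 3 per remaining cell, and at equal depth 22.5, 16 and 15.5 against 4, 2 and 2. The summed level of the 42 genes ran from 1287 to 6969 CPM in E14Tg2a, from 2906 to 10846 in R1 WT and from 3954 to 13146 in R1 dCD. In the remaining cells it reached as far as the lowest endothelium-like cell in 8 of 342, 2 of 1400 and 1 of 1690 cells, so the groups overlapped only slightly. The 2 shallowest E14Tg2a cells, with 12551 and 10875 UMIs, held 10 and 9 of the 42 genes, and neither had a UMI of *Kdr*, *Tie1* or *Tek*.

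**Figure D3:**
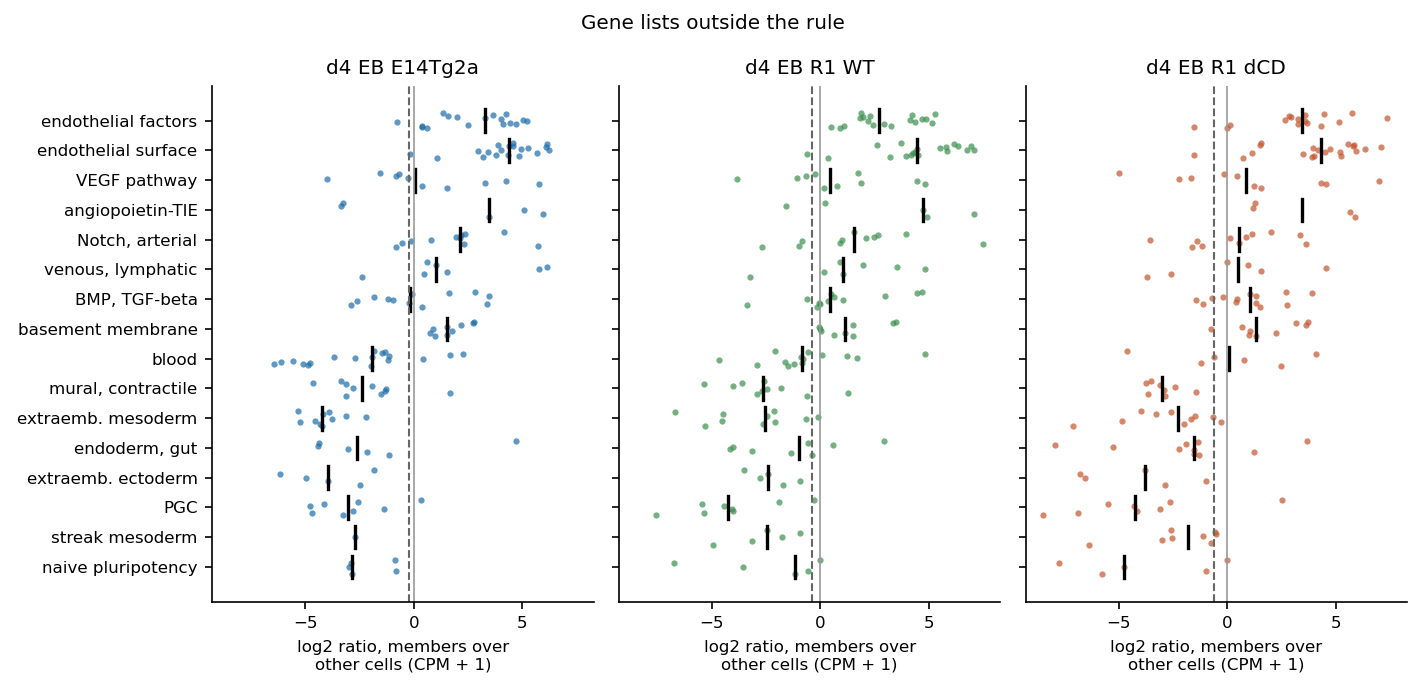
log2 ratio of the endothelium-like over the remaining cells (horizontal axis, CPM + 1) for each gene with at least 10 UMIs, by gene list (rows) and library (panels), with a bar at each list's median and a dashed line at the median of all genes. Endothelial factors and surface genes lie to the right (list medians from 2.69 to 4.43), while mural, extraembryonic and germ cell lists lie to the left.

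Among the transcription factors, the ETS factors and their partners were high in all 3 libraries. Of 18 factors, 13 of 17 in E14Tg2a, 16 of 18 in R1 WT and 13 of 16 in R1 dCD with enough UMIs were at least 2-fold higher, with a median log2 ratio of 3.28, 2.69 and 3.43. The share over all genes was 7.89%, 9.95% and 11.5%. *Etv2*, the pioneer ETS factor of the lineage, is needed early and briefly. It was found in 17 of 26, 4 of 16 and 3 of 9 cells, at 52.1, 19.2 and 186 CPM against 20.2, 4.56 and 2.5. The ratio was 2.58 (95% CI 1.9 to 3.48), 4.21 (95% CI 1.12 to 11.2) and 74.2 (95% CI 41.7 to 127), and in R1 dCD 1 cell held 8 of the 19 *Etv2* UMIs. In E14Tg2a the log2 ratio went to 0.89, within 2-fold, when cells with 2 genes of the rule were added. *Etv2* was therefore not confined to the endothelium-like cells: 29.5%, 4.14% and 3.08% of the remaining cells held it. *Fli1*, a later ETS factor, was found in 22 of 26, 13 of 16 and 8 of 9 cells, at 83.7, 221 and 273 CPM against 5.69, 10.9 and 11.4. *Erg*, which maintains endothelial identity, was at 41, 43.3 and 9.77 CPM against 1.19, 0.147 and 0.263, from 48, 9 and 1 UMIs. *Ets1*, an ETS factor of vessel growth, was at 74.3, 231 and 303 CPM against 24.4, 46.9 and 24.5. *Elk3*, an ETS repressor, was at 157, 144 and 234 CPM against 15.3, 40.6 and 29.8. All 5 of these ETS genes had the higher level in the endothelium-like cells, though *Erg* in R1 dCD rested on 1 UMI (ratio 37.1, 95% CI 0.806 to 306).

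The partners that ETS factors share between endothelium and blood were present as well. *Tal1*, a basic helix-loop-helix factor needed for blood and vessels, was found in 19 of 26, 8 of 16 and 7 of 9 cells, with 0, 1 and 12 UMIs in the lowest, median and highest cell of E14Tg2a, 0, 0.5 and 4 in R1 WT and 0, 2 and 7 in R1 dCD. Its level was 42.7, 67.3 and 205 CPM against 1.66, 1.37 and 0.263, a ratio of 25.7 (95% CI 14 to 50.4), 49 (95% CI 23.8 to 96.2) and 779 (95% CI 304 to 2358). Its cofactor *Lmo2* was at 63.2, 57.7 and 29.3 CPM against 0.712, 2.4 and 2.15, and its relative *Lyl1* at 81.1, 33.7 and 39.1 CPM against 1.54, 0.343 and 0.0439. *Hhex*, a homeobox factor of early endothelium, was at 102, 106 and 137 CPM against 3.68, 4.17 and 10.4. *Etv2* and *Tal1* were found together in 14 of 26, 2 of 16 and 3 of 9 cells, and 5, 6 and 4 cells held *Tal1* alone. *Sox7* and *Sox17* are SOXF factors that act beside *Sox18*. *Sox7* was at 26.5, 62.5 and 58.6 CPM against 0.593, 0.785 and 0.658, and *Sox17* was at 64.9, 81.7 and 97.7 CPM against 1.54, 9.72 and 6.63. *Sox17* also marks endoderm, and it was the only gene of an 11-gene endoderm list that was at least 2-fold higher in E14Tg2a and R1 WT. *Mef2c*, a MADS-box factor under ETS control in vessels, was at 124, 111 and 176 CPM against 21.2, 19.7 and 17.2.

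A few factors of the list did not follow in every library. *Gata2*, a GATA factor of early blood and endothelium, was lower than in the remaining cells of E14Tg2a, at 28.2 against 49.3 CPM, a ratio of 0.571 (95% CI 0.388 to 0.815), and higher in R1 WT, at 81.7 against 17.1 CPM, and in R1 dCD, at 107 against 15.9 CPM. *Klf2*, which responds to flow in vessels, was at 187, 129.8 and 48.8 CPM against 145, 91 and 141. *Nr2f2*, the venous nuclear receptor COUP-TFII, was at 28.2, 19.2 and 9.77 CPM against 18.4, 9.67 and 9.79, from 33, 4 and 1 UMIs. Neither stood above the rest by 2-fold in any library. *Foxc1* and *Foxc2*, forkhead factors of vascular mesoderm, were hardly counted, with 6, 3 and 1 UMIs of the former and 3 of the latter in each library. On these few UMIs, *Foxc1* in R1 WT and *Foxc2* in R1 WT and R1 dCD were among the factors counted above as at least 2-fold higher.

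Nearly all surface and junction genes of endothelium were high, with 18 of 19, 17 of 19 and 18 of 20 genes at least 2-fold higher and a median log2 ratio of 4.39, 4.43 and 4.33. Among all genes 7.89%, 9.95% and 11.5% were that much higher. *Podxl* did not reach 2-fold in E14Tg2a and R1 WT, with log2 ratios of -0.19, -0.60 and 1.16, the last from 5 UMIs. *Cgnl1* did not reach it in R1 WT and R1 dCD, with log2 ratios of 1.07, 0.37 and 0.71. In R1 dCD *Vwf* counted as lower, with 0 UMIs. *Pecam1* (CD31, an adhesion molecule of endothelial contacts) was found in 23 of 26, 15 of 16 and 5 of 9 cells, at 163, 279 and 97.7 CPM against 5.93, 20.4 and 32.6. It was also widespread elsewhere, in 10.8%, 17.4% and 24.2% of the remaining cells, and *Pecam1* is known from pluripotent cells too. *Esam*, a junction molecule, was at 159.7, 178 and 146 CPM against 1.3, 1.47 and 2.11. *Cd34*, a sialomucin of endothelium and blood progenitors, was at 262, 144 and 146 CPM against 9.96, 0.785 and 1.54. *Egfl7*, a secreted vascular protein, was found in every endothelium-like cell of the 3 libraries, at 535, 524 and 889 CPM against 49.7, 24.4 and 38.6, and *Ecscr*, a sialomucin that tunes VEGF signalling, in 25 of 26, 16 of 16 and 8 of 9, at 282, 356 and 371 CPM against 8.3, 15.6 and 3.55. *Ramp2*, the adrenomedullin coreceptor, had 4, 27.5 and 96 UMIs in the lowest, median and highest cell of E14Tg2a, 7, 14 and 29 in R1 WT and 0, 8 and 16 in R1 dCD. Its level was 719, 1226 and 635 CPM against 92.5, 20.3 and 9.39. Its receptor *Calcrl* was at 45.3, 52.9 and 68.4 CPM against 1.3, 2.01 and 0.834.

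Genes of lumen formation and of the plasma membrane were high as well. *Rasip1*, which opens the vessel lumen, was found in 25 of 26, 16 of 16 and 9 of 9 cells, at 275, 351 and 176 CPM against 2.73, 1.62 and 5.53. *Plvap*, which forms the diaphragms of caveolae, was at 209, 207 and 78.1 CPM against 11.9, 0.932 and 3.38, and the C-type lectin *Clec14a* at 29.9, 154 and 97.7 CPM against 0.474, 0.245 and 0.746. *Cd93*, a receptor for the matrix protein MMRN2, was at 116, 57.7 and 146 CPM against 0.712, 0.0491 and 0.0878, and *Mmrn2* itself at 65.8, 178 and 127 CPM against 0.712, 2.94 and 7.2. *Nos3*, the endothelial nitric oxide synthase, was low in number but present, with 23, 9 and 3 UMIs and a level of 19.6, 43.3 and 29.3 CPM against 0.474, 0.981 and 1.67. Genes of mature vessels were hardly counted. *Vwf* (von Willebrand factor) had 3, 0 and 0 UMIs, *Robo4* 9, 1 and 0, *Stab2* 1, 0 and 0 and *Aqp1* 0, 0 and 1. Of these, *Robo4* in E14Tg2a had 0 UMIs in the rest and was at least 21.6-fold higher. The other counts were at or under the limit and allow no fold.

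The cells held the receptors of the VEGF and angiopoietin pathways, and in E14Tg2a the remaining cells held more of 4 ligands by over 2-fold. *Kdr* encodes VEGFR2, the main signalling receptor of the lineage. It was found in 24 of 26, 15 of 16 and 9 of 9 cells, with 0, 11.5 and 43 UMIs in the lowest, median and highest cell of E14Tg2a, 0, 3.5 and 16 in R1 WT and 2, 7 and 14 in R1 dCD, and reached 337 CPM (95% CI 304 to 371), 399 CPM (95% CI 318 to 495) and 635 CPM (95% CI 489.9 to 809). The ratio to the remaining cells was 20.3 (95% CI 16.7 to 24.8), 23.2 (95% CI 18.1 to 29.6) and 157 (95% CI 113 to 218), and 22.2%, 16.2% and 3.55% of those cells held *Kdr*, a gene known from early mesoderm as well. The decoy receptor *Flt1* (VEGFR1) was at 109, 144 and 508 CPM against 10.4, 39.4 and 24.1, and *Flt4* (VEGFR3, the receptor of VEGF-C) at 80.3, 33.7 and 127 CPM against 0.474, 0.245 and 4.39. All 3 receptors were at least 2-fold higher in every library. The coreceptors *Nrp1* and *Nrp2* were broader. *Nrp1* was at 135, 173 and 78.1 CPM against 103, 103 and 32.3, and *Nrp2* was at 90.5, 129.8 and 342 CPM against 30.2, 117 and 115. Of the TIE receptors, *Tie1* was at 98.2, 139 and 68.4 CPM against 0.593, 0.0491 and 0.0878 and *Tek* (TIE2) was at 73.5, 38.5 and 97.7 CPM against 1.19, 0.491 and 0.966. The phosphatase *Ptprb*, which acts on TIE2, was at 15.4, 33.7 and 68.4 CPM against 0.474, 0.147 and 0.176. *Tie1* had a UMI in 5 of 342, 1 of 1400 and 2 of 1690 remaining cells, so few cells outside the class held it.

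The ligands had another distribution. *Vegfa*, the main KDR ligand, was at 5.12 against 16.7 CPM in E14Tg2a (0.306 times the rest, 95% CI 0.111 to 0.684) and 0 UMIs against 31.1 CPM in R1 dCD (the limit was 29.3 CPM, and the interval of the ratio included 1), but at 96.2 against 28.7 CPM in R1 WT (3.36 times, 95% CI 2.03 to 5.23), where 11 of 16 cells held it. *Pgf* (placental growth factor, a FLT1 ligand) had 1, 0 and 0 UMIs in the endothelium-like cells and was at 28.9, 13.3 and 3.64 CPM in the rest. In E14Tg2a this was 33.9-fold lower (95% CI 6.02 to 1344), and the R1 counts of 0 were within the limit. *Angpt1* and *Angpt2*, the ligands of TIE2, were low in the E14Tg2a cells: *Angpt1* had 0 UMIs against 8.66 CPM (at least 3.38-fold lower) and *Angpt2* 2 UMIs, at 1.71 against 27 CPM (15.8-fold lower, 95% CI 4.33 to 131). In R1 WT they had 3 and 1 UMIs and in R1 dCD 1 each, too few to give a direction. *Vegfb* was at 38.4, 57.7 and 68.4 CPM against 61.9, 69.9 and 74.8 and *Vegfc* at 23.9, 19.2 and 19.5 CPM against 42.8, 30.9 and 13.9, both within 2-fold of the rest in each library.

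**Figure D4:**
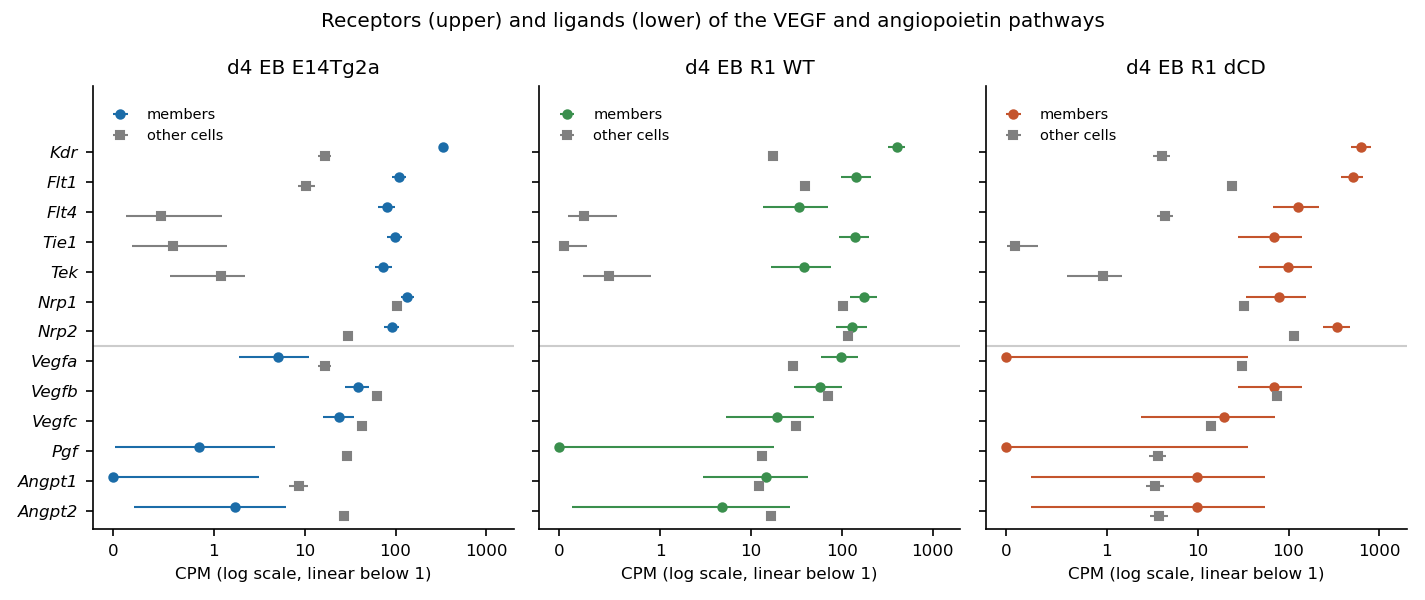
Level in CPM (horizontal axis, log scale, linear below 1) of VEGF and angiopoietin receptors (upper rows) and ligands (lower rows) in the endothelium-like cells (coloured, called members in the key) and in the remaining cells (grey), 1 panel per library, with 95% Poisson intervals. The coloured receptor points lie to the right of the grey ones, and for *Pgf* and *Angpt2* in E14Tg2a the order is the opposite.

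Notch and arterial genes were present in part of the cells. Notch signalling directs endothelial cells to an arterial fate, and of 13 such genes 7 of 11, 7 of 11 and 4 of 11 were at least 2-fold higher in E14Tg2a, R1 WT and R1 dCD and 0, 1 and 4 at least 2-fold lower. Over all genes 7.89%, 9.95% and 11.5% were higher and 25.1%, 38.2% and 47.6% lower. The 4 higher genes of R1 dCD were *Jag1*, *Jag2*, *Notch1* and *Gja4*, on 4, 2, 15 and 3 UMIs. Among the 7 of R1 WT, *Jag1*, *Notch4* and *Hey2* rested on 5, 4 and 4 UMIs. The 4 lower genes of R1 dCD were *Hey2*, *Hes1*, *Unc5b* and *Cxcr4*, and its list had a median log2 ratio of 0.54. Of these, *Hey2* and *Cxcr4* had 0 UMIs, against 10.7 and 2.11 CPM in the rest. Both levels lie under the limit of 29.3 CPM, so the counts of 0 give no direction. *Unc5b* rested on 5 UMIs and went under 2-fold when cells with 2 genes of the rule were added. The receptor *Notch1* was at 53, 159 and 146 CPM against 12.9, 24.4 and 13.3. Its ligand *Jag1* was at 28.2, 24 and 39.1 CPM against 4.74, 7.56 and 9, from 33, 5 and 4 UMIs. The arterial ligand *Dll4* was found in 8 of 26 E14Tg2a cells and in 0 of 342 remaining ones, which made it at least 48-fold higher, while R1 WT and R1 dCD had 0 and 1 UMIs, within the limit of 3. The arterial connexin gene *Gja4* (connexin 37) was found in 15 of 26, 10 of 16 and 1 of 9 cells, at 101, 240.4 and 29.3 CPM against 0.949, 0.343 and 1.45. All 3 UMIs of R1 dCD came from 1 cell. *Efnb2* (ephrin-B2) was at 41, 57.7 and 48.8 CPM against 7.47, 30.1 and 33.3, and *Hey1*, a Notch target, at 16.2, 28.8 and 19.5 CPM against 9.01, 5.89 and 17.8. The broad Notch target *Hes1* was lower than in the rest, at 244, 62.5 and 39.1 CPM against 358, 113 and 104. In R1 dCD this rested on 4 UMIs, and the direction turned when cells with 2 genes of the rule were added. *Cxcr4* and *Gja5* (connexin 40) had at most 3 UMIs in any library.

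Some arterial genes of E14Tg2a were concentrated in 1 cell. With 67209 UMIs, 5.74% of those of the 26 cells, it held 110 of the 668 UMIs of the Notch and arterial list (16.5%). It held 25 of 48 *Efnb2* UMIs (52.1%), 9 of 20 of *Dll4* (45%), 17 of 48 of *Unc5b* (35.4%) and 7 of 19 of *Hey1* (36.8%), and also the most *Cdh5* (55 UMIs), *Flt1* (29 of 128) and *Cd93* (33 of 136) of the 26 cells. Other arterial genes were spread more widely: the same cell held 14 of 118 *Gja4* UMIs (11.9%) and 12 of 286 of *Hes1* (4.2%), both highest in another cell, with 33 and 47 UMIs. It also held 2 UMIs each of *Icam2* and *Ctla2a*. Of genes linked to veins, *Aplnr*, the apelin receptor, was found in 20 of 26 E14Tg2a cells at 102 against 0.474 CPM, and had 3 UMIs in R1 WT and 1 in R1 dCD. *Ephb4*, the venous ephrin receptor, was at 32.5, 101 and 39.1 CPM against 15.7, 25.3 and 19.4. *Gja4* and *Aplnr* were not exclusive in E14Tg2a: 12 cells held both, 3 *Gja4* alone, 8 *Aplnr* alone and 3 neither. *Dll4* and *Efnb2* were found together in 7 of the 8 cells that held *Dll4*. The lymphatic genes *Lyve1* (0 UMIs in each library), *Pdpn* (1, 0 and 0) and *Prox1* (2, 4 and 0) were hardly counted.

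Of the BMP and TGF-beta pathways, endoglin and ALK1 were higher in the endothelium-like cells, and the target genes varied between the libraries. BMP4 was in the medium, and the type I receptor ALK1 (*Acvrl1*) with its coreceptor endoglin (*Eng*) marks endothelium. *Eng* was found in 21 of 26, 13 of 16 and 7 of 9 cells, at 105, 264 and 146 CPM against 13.9, 9.47 and 21.8, and *Acvrl1* at 26.5, 81.7 and 68.4 CPM against 7.95, 2.85 and 3.64. *Tgfbr2* was at 35.9, 43.3 and 9.77 CPM against 2.37, 4.56 and 3.29, from 42, 9 and 1 UMIs, of which the last is under the limit of 3. The type II receptor *Bmpr2* was at 26.5, 81.7 and 97.7 CPM against 28, 57.7 and 46.5, a ratio of 0.946 (95% CI 0.629 to 1.38), 1.42 (95% CI 0.823 to 2.28) and 2.1 (95% CI 1 to 3.88). Of the targets of BMP signalling, *Id1* was at 208, 736 and 547 CPM against 401, 360.5 and 405 and *Id3* at 429, 611 and 693 CPM against 502, 639 and 529.5. The inhibitor *Smad6* was at 20.5, 139 and 58.6 CPM against 75.9, 91.4 and 67. In E14Tg2a *Id1* and *Smad6* were lower than in the rest, at ratios of 0.518 (95% CI 0.453 to 0.59) and 0.27 (95% CI 0.172 to 0.406). In R1 WT they were higher, at 2.04 (95% CI 1.73 to 2.4) and 1.53 (95% CI 1.02 to 2.2). *Id2* was lower in E14Tg2a and R1 dCD, at 52.1 against 319 CPM and 107 against 292 CPM, and at 255 against 201 CPM in R1 WT. *Bmp4* itself was lower in E14Tg2a and R1 WT, with 3 and 1 UMIs and 2.56 and 4.81 CPM against 25.6 and 60.6. In R1 dCD its 2 UMIs, at 19.5 against 43.8 CPM, were too few to give a direction. *Bmp2* was higher in E14Tg2a, at 60.6 against 4.86 CPM, but level in R1 WT, at 43.3 against 43.3 CPM. Of 9 basement membrane genes, 6, 5 and 6 were at least 2-fold higher and none was at least 2-fold lower. Of all genes, 7.89%, 9.95% and 11.5% were higher and 25.1%, 38.2% and 47.6% lower. The collagen IV chains *Col4a1* and *Col4a2* form the sheet under endothelium. *Col4a1* was at 429, 976 and 703 CPM against 61.4, 87.2 and 52.5, and *Col4a2* at 245, 481 and 264 CPM against 35.9, 45.9 and 28.1. *Lama4*, the laminin chain of vessels, was at 50.4, 24 and 97.7 CPM against 10.4, 7.9 and 6.98, and the matricellular *Sparc* at 785, 1135 and 820.3 CPM against 275, 738 and 412.

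Most markers of blood were low or at 0 in the endothelium-like cells of E14Tg2a, while in R1 most counts were too few to give a direction. Endothelium and blood arise from a shared mesoderm, and some endothelium can give rise to blood cells. Of 22 blood genes 10, 14 and 19 had 0 UMIs in the endothelium-like cells of E14Tg2a, R1 WT and R1 dCD, among them *Ptprc* (CD45), *Gata1*, *Klf1* and *Alas2*. Among all genes with at least 10 UMIs, 8.68%, 29.4% and 41.4% were at 0 there, while the 22 include genes on fewer UMIs. In the rest of both R1 libraries *Gata1* and *Klf1* reached at most 0.491 CPM, far under the limit, so their counts of 0 give no direction. The list summed to 157 CPM against 1620 in the rest of E14Tg2a, 178 against 154 in R1 WT and 156 against 51.8 in R1 dCD, with 20, 7 and 4 UMIs in the highest cell. The sum of 1620 CPM was carried by few cells: the median cell was at 129 CPM among the endothelium-like cells of E14Tg2a and at 59.6 CPM among the rest, whose highest cell was at 286419 CPM. In R1 the medians were 158 against 49 CPM and 148 against 0 CPM, so by the median cell the list was higher in the endothelium-like cells of all 3 libraries. In R1 this signal was led by *Car2*, the carbonic anhydrase gene, at 96.2 against 29.4 CPM and 107 against 18.3 CPM, and *Itga2b*. Embryonic globins were a feature of other E14Tg2a cells: *Hbb-y* was at 12 against 444 CPM (37.2-fold lower, 95% CI 22.1 to 68) and *Hba-x* at 6.83 against 370.2 CPM. *Runx1*, needed for blood to leave endothelium, had 2, 3 and 0 UMIs, at 1.71, 14.4 and 0 CPM against 8.78, 65.9 and 23.8, and the 0 of R1 dCD was within the limit. *Itga2b* (CD41, of early blood progenitors and megakaryocytes) was an exception, in 13 of 26, 6 of 16 and 3 of 9 cells at 16.2, 43.3 and 39.1 CPM against 2.61, 0.589 and 1.32. *Pf4* (platelet factor 4) was counted in the E14Tg2a cells too: it had 41 UMIs in 14 of 26 cells and 0 in the rest, 9 cells held both genes, 5 *Pf4* alone and 4 *Itga2b* alone. *Pf4* had 1 UMI in R1 WT and 0 in R1 dCD.

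Markers of the other d4 EB classes were mostly lower in the endothelium-like cells. A list of 10 genes of extraembryonic mesoderm summed to 50.4 CPM against 1190.0 in E14Tg2a, 212 against 1784 in R1 WT and 29.3 against 403 in R1 dCD, with *Hand1*, a factor of that tissue, at 5.12, 144 and 9.77 CPM against 247, 631 and 166. In R1 WT, 1 cell (19244 UMIs, 3 of 6 genes of the rule, 20 of the 42 endothelial genes) held 28 of the 44 UMIs of this list and 15 of the 20 UMIs of 11 mural and contractile genes. Without it the median log2 ratio of the endothelial genes in R1 WT was 4.25. In E14Tg2a the highest cell held 19 of 59, and it was 1 of the deepest, with 104143 UMIs. The mural and contractile list summed to 33.3 against 217 CPM, 96.2 against 880.2 and 9.77 against 191, and *Myl9* and *Cnn1* had 0 UMIs in all 3. The 6 genes of extraembryonic ectoderm summed to 12.8 against 664 CPM in E14Tg2a and had 0 UMIs in both R1 libraries. The 8 germ cell genes summed to 23.1 against 241 CPM, 9.62 against 343 and 68.4 against 579. Of these *Dppa3*, *Prdm14* and *Nanog* had 0 UMIs in every endothelium-like cell, and *Pou5f1* 13, 0 and 0. In R1 dCD all 7 germ cell UMIs were of *Prdm1*, in 5 of 9 cells, at 68.4 against 11.1 CPM (ratio 6.18, 95% CI 2.46 to 12.9). Primitive streak genes had 1 UMI in E14Tg2a and 0 in R1, against 8.89, 46.7 and 100.3 CPM in the rest.

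An adhesion receptor of vessels was among the 10 genes outside the rule with the highest ratio in all 3 libraries. In E14Tg2a the first 10 with at least 20 UMIs were *Mfng*, *Pf4*, *Myct1*, *Tmem255a*, *Adgrl4*, *Clec1a*, *Dll4*, *Rasgrp3*, *Gimap6* and *Hlx*. The first 7 had 0 UMIs in the remaining 342 cells, and *Mfng*, a glycosyltransferase that modifies Notch receptors, was at least 158-fold higher. In R1 WT they were *Tie1*, *Gja4*, *Adgrl4*, *Clec14a*, *Plvap*, *Rasip1*, *Cd34*, *Igf1*, *Esam* and *Myzap*, and in R1 dCD *Tal1*, *Adgrl4*, *Ctla2b*, *Klhl6*, *Kdr*, *Plxnd1*, *Hapln1*, *Ecscr*, *Ramp2* and *Rhoj*. *Adgrl4* (ELTD1), this receptor, was in each of the 3 sets, with 31, 28 and 20 UMIs in the endothelium-like cells and 0, 4 and 12 in the rest. Its level was 26.5 CPM (95% CI 18 to 37.6), 135 CPM (95% CI 89.5 to 195) and 195 CPM (95% CI 119 to 302). *Mfng* was at 56.4, 0 and 9.77 CPM, from 66, 0 and 1 UMIs, and *Gimap6* at 81.1, 14.4 and 0 CPM, from 95, 3 and 0 UMIs. *Tmem255a* was at 30.7 CPM in E14Tg2a and had 0 UMIs in both R1 libraries, where the limit was 14.4 CPM in R1 WT and 29.3 in R1 dCD, so in R1 dCD a level close to that of E14Tg2a could not have been told from 0. *Igf1*, the insulin-like growth factor, was at 119, 236 and 29.3 CPM against 1.07, 1.67 and 1.62.

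Of 801 genes with at least 20 UMIs in the endothelium-like cells of each library, 22 were at least 4-fold higher in all 3. They were 4 genes of the rule (*Cldn5*, *Ctla2a*, *Icam2* and *Sox18*) and 18 others, of which 7 were in the lists above. Beside *Kdr*, *Fli1*, *Egfl7*, *Ecscr*, *Ramp2*, *Col4a1*, *Col4a2*, *Adgrl4* and *Ctla2b*, they were *Col18a1*, *Rhoj*, *Hapln1*, *Gng11*, *Dusp2*, *Gap43*, *Swap70*, *Tnfaip2* and *Ccdc85b*. *Rhoj*, a small GTPase of vessels, was at 182, 379.8 and 205 CPM against 6.64, 5.05 and 3.25. *Col18a1*, the precursor of endostatin, was at 218, 577 and 576 CPM against 52.7, 71.8 and 83.1, and *Hapln1*, a link protein of hyaluronan matrix, at 260.5, 274 and 264 CPM against 11.5, 5.74 and 2.41. *Gng11*, a G protein subunit, was at 416, 231 and 322 CPM against 22.2, 9.96 and 5.53, and *Dusp2*, a MAP kinase phosphatase, at 149, 154 and 215 CPM against 5.22, 8.05 and 3.55. *Gap43*, better known from growing axons, was at 201, 293 and 313 CPM against 8.42, 72.1 and 18.6. *Swap70*, which acts on RAC, was at 57.2, 212 and 273 CPM against 9.49, 31.5 and 28.7. *Tnfaip2*, a gene induced by TNF in endothelium, was at 29, 313 and 215 CPM against 2.96, 19.3 and 8.29, and *Ccdc85b* at 70.9, 245 and 254 CPM against 8.78, 52.1 and 38.

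The genes furthest below the rest had 0 UMIs in the endothelium-like cells. In E14Tg2a they were *Spin2c*, *Pdgfra* (a receptor of mesenchyme), *Sfn*, *Gjb5* and *Tmod1*, lower by at least 31.8-fold for *Spin2c* and at least 13.1-fold for *Tmod1*. In R1 WT they were *Krt8*, *Phlda2*, *Pou5f1*, *L1td1* and *Utf1*. *Krt8*, a keratin of simple epithelia found in 72.1% of the remaining cells, was at least 53.7-fold lower (774 CPM in the rest). In R1 dCD they were *Mt1*, *Krt18*, *Pou5f1*, *Tdgf1* and *Ldhb*. *Pou5f1*, the pluripotency factor OCT4, was at least 13.4-fold lower in R1 WT and at least 12.2-fold lower in R1 dCD, and at 11.1 against 115 CPM in E14Tg2a. *Krt8* and its partner keratin *Krt18* were low in all 3 libraries. *Krt8* was at 15.4, 0 and 9.77 CPM against 666, 774 and 525, and *Krt18* at 11.1, 9.62 and 0 CPM against 558, 421 and 393.

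Summed over cells, cell cycle genes were mostly within 2-fold of the remaining cells. The shares over all genes were 7.89%, 9.95% and 11.5% at least 2-fold higher and 25.1%, 38.2% and 47.6% lower in E14Tg2a, R1 WT and R1 dCD. Of 15 genes of S phase 0, 1 and 0 were at least 2-fold higher and 0, 0 and 2 lower, with a median log2 ratio of 0.11, -0.13 and -0.18. Of 15 genes of G2/M, 0, 0 and 2 were lower and none higher, with medians of 0.11, 0.09 and -0.21. The cells differed widely in this. In R1 WT the summed G2/M level had a median of 409 CPM per endothelium-like cell against 1649 in the rest, 13 of 16 cells had any G2/M UMI, and the highest was at 8184 CPM. In E14Tg2a the medians were 1498 against 759 CPM and in R1 dCD 2209 against 2279. Genes induced by dissociation differed between libraries. In E14Tg2a *Fos* was at 91.4 against 309.7 CPM and *Egr1* at 115 against 227 CPM, both lower than in the rest, while *Atf3* was at 55.5 against 29.2 CPM. *Jun* was at 139, 337 and 429.7 CPM against 193, 247 and 150.1. In R1 WT and R1 dCD *Atf3* was at 33.7 and 78.1 CPM against 11.4 and 3.42, from 7 and 8 UMIs. The 8 genes of this list summed to 620, 668 and 684 CPM against 988, 533 and 298. The ratios were 0.628, 1.25 and 2.3, with counting intervals of 0.581 to 0.677, 1.05 to 1.48 and 1.79 to 2.91. Of the 8 genes 0, 2 and 2 were at least 2-fold higher and 3, 0 and 4 lower. In R1 dCD 3 of them had 0 UMIs.

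The 9 R1 dCD cells were compared with the 16 R1 WT cells. The question was how the endothelium-like cells of the catalytic mutant line compare with those of its parent, and with 1 library each genotype and library cannot be told apart. Of 4912 genes with at least 10 UMIs in both together, 498 (10.1%) were at least 2-fold higher in dCD and 590 (12.0%) at least 2-fold lower, mostly at low counts. Of 1020 genes with at least 50 UMIs, 17 were higher and 33 lower. In the remaining cells of the same libraries 14.6% of 16237 genes were higher and 7.73% lower. The median log2 ratio of dCD over WT was -0.04 over the 4912 genes of the endothelium-like cells.

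Among genes with at least 50 UMIs, the 5 with the highest ratio of dCD to WT were *Cldn5*, *Tpi1*, *Flt1*, *Aldoa* and *Eno1*. *Cldn5* is a gene of the rule, so its levels in the chosen and in the remaining cells depend on how the cells were chosen, and its values are a description. It went from 125 to 645 CPM, from 26 UMIs in 12 of 16 cells to 66 UMIs in 9 of 9, a ratio of 5.16 (95% CI 3.23 to 8.46). In the remaining cells the ratio was 0.561. *Flt1*, which the rule did not use, went from 144 to 508 CPM, with a ratio of 3.52 (95% CI 2.2 to 5.72) against 0.613 in the rest. In R1 dCD 1 cell held 15 of its 52 UMIs. The other 3 were glycolysis enzymes. *Tpi1* (ratio 4.6, 95% CI 3.1 to 6.92), *Aldoa* (3.01, 95% CI 2.16 to 4.23) and *Eno1* (2.93, 95% CI 1.75 to 4.98) were higher in the remaining dCD cells as well, at ratios of 3.45, 3.1 and 2.18. The ratios of the endothelium-like and the remaining cells were not tested against each other.

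The 5 lowest were *H19*, *Dcaf12l1*, *Igf2*, *Apoe* and *Gja4*. *H19*, an imprinted noncoding RNA, had 228 UMIs in 5 of 16 R1 WT cells and 0 in R1 dCD, at least 37.4-fold lower, and *Igf2*, the growth factor gene beside it, was lower by 11.4-fold (95% CI 6.54 to 21.6). In the remaining cells both were lower too, by 25.9-fold and 8-fold. *Dcaf12l1* was lower by 13-fold (95% CI 3.44 to 111), and by 2.16-fold in the remaining cells. *Apoe* (apolipoprotein E) was lower by 10.3-fold (95% CI 5.13 to 24.3), from 808 to 78.1 CPM, and the ratio in the remaining cells was 1.16. *Gja4* went from 240.4 to 29.3 CPM, in 10 of 16 and 1 of 9 cells, lower by 8.21-fold (95% CI 2.65 to 41.1), while in the remaining cells the ratio was 4.22 on low counts.

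The endothelial, VEGF and Notch lists differed by less than 2-fold in sum between the genotypes. The summed level of the 18 factors was 1.36 times as high in dCD (95% CI 1.14 to 1.63), that of the 24 surface genes 0.814 times (0.716 to 0.925), and that of the 10 VEGF pathway genes 1.69 times (1.38 to 2.06), from *Kdr* (1.59, 95% CI 1.13 to 2.23), *Flt1* and *Nrp2* (2.63, 95% CI 1.55 to 4.52). The 13 Notch and arterial genes summed to 0.561 times (0.389 to 0.794), with *Notch1* at 0.923 (95% CI 0.466 to 1.75) and *Gja4* as above. Of the factors, *Tal1* was at 3.05 (95% CI 1.48 to 6.48) and *Etv2* at 9.65 (95% CI 3.21 to 39), the latter from 4 and 3 cells, while *Fli1* was at 1.24 (95% CI 0.744 to 2.02) and *Ets1* at 1.31 (95% CI 0.807 to 2.1). Of the surface genes, *Ramp2* was at 0.518 (95% CI 0.388 to 0.682), *Pecam1* at 0.35 (95% CI 0.16 to 0.691), *Plvap* at 0.378 (95% CI 0.153 to 0.813) and *Egfl7* at 1.7 (95% CI 1.27 to 2.26). Of the rule, *Cdh5* was at 0.434 (95% CI 0.249 to 0.717) and *Ctla2a* at 1.72 (95% CI 1.53 to 1.93), and *Emcn* (0.748, 95% CI 0.375 to 1.41), *Sox18* (0.861, 95% CI 0.516 to 1.4) and *Icam2* (1.23, 95% CI 0.699 to 2.12) had intervals that included 1. *Vegfa* had 20 UMIs in 11 R1 WT cells and 0 in R1 dCD, with an upper limit of the ratio of 0.411.

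**Figure D5:**
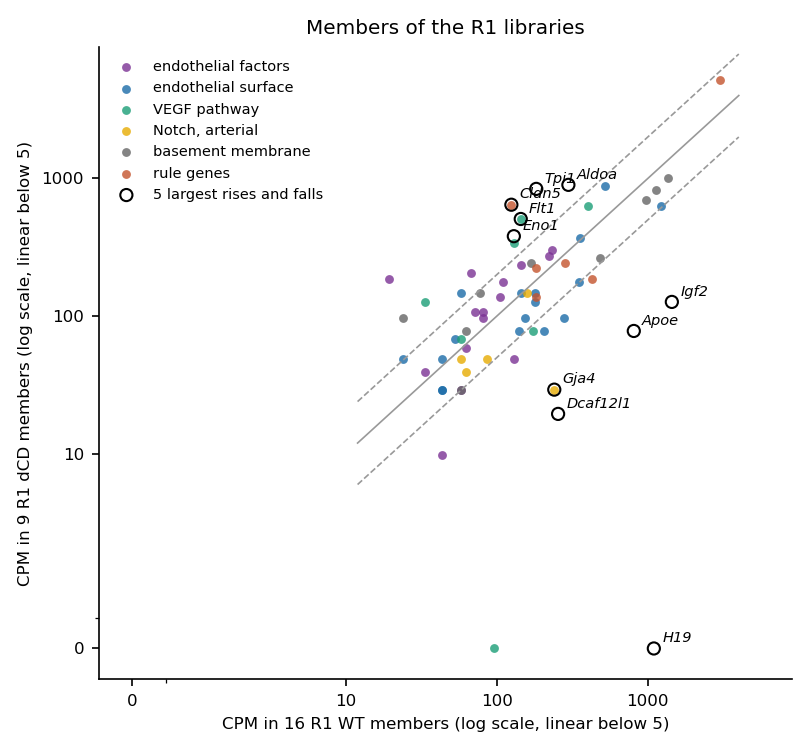
Level of genes of 6 lists, each with at least 10 UMIs over both libraries, in the 9 R1 dCD (vertical axis) against the 16 R1 WT endothelium-like cells (horizontal axis), in CPM on a log scale that is linear below 5, with guide lines at equality and at 2-fold, 1 colour per list and the 5 largest rises and falls circled. *Cldn5* (a gene of the rule), at 645 CPM in dCD and 125 in WT, lies above the upper 2-fold line, and *Gja4*, at 29.3 and 240.4, below the lower one.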

How the data were processed

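Single cells were profiled by the authors with 10x Chromium 3′ kits, and UMI counts per gene and cell were deposited by the authors without scaling. The E14Tg2a counts came from Cell Ranger on GRCm38 (mm10), with the libraries aggregated to an equal number of mapped reads per cell. The R1 cells had been filtered by the authors on the number of expressed genes, and the lowest number in the table was 2006. The tables held 27998 and 32285 genes, and 27645 of the former were given symbols from a GENCODE annotation. Reads were thus not realigned, and counts of paralogues depend on the authors' counting. The d4 EB cells of E14Tg2a were found by the suffix of the barcode and those of R1 by the column names. UMIs were summed over the endothelium-like and over the remaining cells of a library and divided by their total (CPM). Exact 95% intervals (Poisson for levels, conditional binomial for ratios, Clopper-Pearson for shares) cover counting error, since cells of 1 library are not replicates. Genes with at least 10 UMIs in both classes together entered the counts, and a ratio of 2 or more was taken as the limit. No test was run. A fold against a count of 0 is a lower bound from 3 UMIs over the group. Named were the 6 genes of the rule, genes of 20 lists, the 10 highest genes per library with at least 20 UMIs, the 5 lowest with at least 100 UMIs in the rest, genes 4-fold higher in all 3 libraries, and the 5 largest rises and falls between the R1 lines with at least 50 UMIs. *Pf4*, *Ctla2b* and the cell with most *Efnb2* UMIs were singled out after their values were seen. The cells and the lists were chosen with earlier results of these data known. Doublets were called with Scrublet (scanpy 1.11.5, seed 0) and kept. Cells were thinned (seed 1) to the lowest 10th percentile of UMIs per cell among the d4 EB libraries of each table, leaving out shallower cells. Python 3.11.15, numpy 2.4.6, scipy 1.17.1 and matplotlib 3.10.9 were used, and the computations were checked on simulated counts. Alternatives changed the rule, depth, doublets, filter, pseudocount, reference cells and averaging. The number of value columns left unused was 0.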

Additional observations from a re-analysis of the deposited data

Results flagged for a closer look

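For 8 of 216 genes of the lists (3.7%) the level in the endothelium-like cells, divided by that in the remaining cells, lay above 1 in one library and below 1 in another, with 95% counting intervals on opposite sides of 1. The difference between libraries was not tested, since each is 1 library, and line, kit and genotype cannot be told apart in it. Of genes with at least 10 UMIs in all 3 libraries, 8 of 165 listed genes (4.85%) and 173 of 11824 genes in all (1.46%) did so. Of factors and VEGF genes, *Gata2* was at 4.79 (95% CI 2.76 to 7.78) in R1 WT and 6.74 (95% CI 3.34 to 12.2) in R1 dCD but 0.571 (95% CI 0.388 to 0.815) in E14Tg2a. *Vegfa* was at 3.36 (95% CI 2.03 to 5.23) in R1 WT and 0.306 (95% CI 0.111 to 0.684) in E14Tg2a, and *Klf2* at 1.29 (95% CI 1.11 to 1.49) in E14Tg2a and 0.346 (95% CI 0.112 to 0.807) in R1 dCD, from 5 UMIs. With cells thinned to 1 depth the log2 ratio of *Klf2* in R1 dCD went from -1.51 to -0.55, within 2-fold. Of genes that respond to BMP, *Id1* was at 2.04 (95% CI 1.73 to 2.4) in R1 WT, 1.35 (95% CI 1.02 to 1.76) in R1 dCD and 0.518 (95% CI 0.453 to 0.59) in E14Tg2a, *Id3* at 1.31 (95% CI 1.02 to 1.65) in R1 dCD and 0.854 (95% CI 0.777 to 0.937) in E14Tg2a, and *Smad6* at 1.53 (95% CI 1.02 to 2.2) in R1 WT and 0.27 (95% CI 0.172 to 0.406) in E14Tg2a. The stress gene *Jun* was at 1.36 (95% CI 1.06 to 1.72) in R1 WT, 2.86 (95% CI 2.08 to 3.85) in R1 dCD and 0.721 (95% CI 0.61 to 0.848) in E14Tg2a, and the mitotic kinase gene *Plk1* at 1.7 (95% CI 1.05 to 2.62) in R1 WT and 0.235 (95% CI 0.0285 to 0.852) in R1 dCD, the latter from 2 UMIs.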

How the results depend on the processing

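The limits are the 1 library per group, the 9 to 26 cells per library and, in R1, a limit of 14.4 or 29.3 CPM for a count of 0. Of 110 recomputed values for the main comparisons, 101 stayed within the set range and 9 moved. The range was 1.5 times for counts of genes and the counting interval for shares of cells. For list medians it was an interval of the median over the listed genes. Some settings chose the same cells. In E14Tg2a, requiring 4 of the 6 genes or leaving out *Ctla2a* kept the same 26 cells. In R1 both settings chose the same 14 WT and 8 dCD cells, and no endothelium-like cell was called a doublet. Requiring 2 or 4 of the 6 genes, leaving out *Ctla2a* or doublets, or thinning moved the share of endothelium-like cells to between 7.07 and 9.51% in E14Tg2a, 0.989 and 1.55% in R1 WT, and 0.471 and 0.706% in R1 dCD. The median log2 ratio of the endothelial genes stayed between 3.68 and 4.65, 3.88 and 4.43, and 3.35 and 4.31. With 0.1 CPM added it was 4.65 in E14Tg2a. With at least 5 UMIs expected in the endothelium-like cells, a filter chosen after seeing the data, 610, 177 and 131 genes were at least 2-fold higher in E14Tg2a, R1 WT and R1 dCD and 1805, 794 and 449 lower, against 977, 1423 and 1753 higher and 3111, 5462 and 7232 lower. It kept 9741, 5727 and 3325 genes, and the shares fell as well, to 6.26, 3.09 and 3.94% higher and 18.5, 13.9 and 13.5% lower, from 7.89, 9.95 and 11.5% and 25.1, 38.2 and 47.6%. The cause was not tested. With at least 50 UMIs, 17 genes were higher and 33 lower in dCD than in WT, against 498 and 590. Single genes of the endothelial, VEGF, TIE, Notch, BMP and basement membrane lists were recomputed under 7 settings, as 138 pairs of gene and library. Only genes past 2-fold with at least 10 UMIs, counted or expected, in the endothelium-like cells were taken. Genes on fewer UMIs or within 2-fold were left out. Of these 966 values, 949 kept their direction and the 2-fold limit and 16 kept the direction only. Among the latter were *Etv2* in E14Tg2a, *Klf2* in R1 dCD and *Id1* in R1 WT. *Hes1* in R1 dCD turned to a log2 ratio of 0.26 when 2 of the 6 genes sufficed, and the cause was not tested. Leaving out the deepest cell, or the one with most UMIs of extraembryonic mesoderm genes, was also chosen after seeing the data. No paired analysis was possible because each group was 1 library.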
